A study of Homo sapiens with 17 samples.

Results

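The epithelial-mesenchymal transition genes examined here are 10 genes that mark or control the switch between an epithelial and a mesenchymal cell state: CDH1, EPCAM, ESRP1 and GRHL2 on the epithelial side, and CDH2, VIM, ZEB1, ZEB2, SNAI1 and SNAI2 on the mesenchymal side. They were chosen by name, 10 of the 19974 protein-coding genes that RefSeq places on chromosomes 1 to 22 and X. A peak was assigned to a gene when its summit lay inside the gene or within 100 kb of either end of the gene span in GRCh38, and 209 of the 208775 peaks in 8 lists met this rule.

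The peaks come from Flag chromatin immunoprecipitation and sequencing in U2OS cells, an established human osteosarcoma line, in which a Tet-on system drove a Flag-tagged transcription factor. The genotypes were Tet-on FOXA1, FOXA1dCTD, FOXA2, FOXA2dCTD, FOXA3, FOXA3dCTD, SOX2 and SOX2FOXA2CTD, where dCTD is a protein without its CTD and the last is SOX2 joined to the CTD of FOXA2. Each genotype had 2 biological replicates, induced for 4 days with 500 ng/ml doxycycline by the sample labels (the extraction text gives the same figure per microlitre), and 1 input sample carried neither a genotype nor a treatment label. For each genotype the authors deposited 1 list of peaks that combines both replicates by the irreproducible discovery rate (IDR), which scores each peak by the match of its ranks in the replicates. The comparisons asked how binding at these loci differed between the factors, between each full-length FOXA protein and its CTD-deleted form, and between SOX2 and the fusion. Whether a line was 1 clone or a pool is not given in the sources used here, and all lines carry the induced factor on top of whatever U2OS cells express themselves.

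During the transition, epithelial cells lose adherens junctions and polarity and gain motility. SNAI and ZEB proteins are zinc-finger repressors that bind E-box sequences and shut off CDH1 and other epithelial genes, while GRHL2 and ESRP1 maintain the epithelial programme of transcription and splicing. FOXA proteins are forkhead factors known for binding their sites in closed chromatin, in endoderm and in hormone-responsive epithelia. No RNA was measured in these samples, so whether the 4 epithelial genes were silent in the cells was not tested here, and the genes serve as loci.

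Promoter sequences show where binding did and did not reach a gene start. The RefSeq promoter table (GRCh38.p14) had 11 entries for 4 of the 10 genes, CDH2, VIM, ZEB1 and ZEB2, and 0 of the 11 had a peak of any list over the 250 bases upstream, beside 13.0% of 34961 promoters on chromosomes 1 to 22 and X. Entries were examined in the windows of 7 genes (CDH1, EPCAM, CDH2, VIM, ZEB1, ZEB2 and SNAI1), and those around ESRP1, GRHL2 and SNAI2 were not used here. Of the 31 entries examined, members included, 4 were under a peak, and all of these belonged to neighbouring genes. Most of the 11 member entries were ZEB1 starts lying close together, so they are not independent. At SNAI2, outside this set, peaks of full-length FOXA1 and full-length FOXA2 spanned the upper coordinate of the gene. The 0 of 11 thus covers CDH2, VIM, ZEB1 and ZEB2 only. It does not show that the starts of SNAI2 and the other members were free of peaks. The first sequence below is that of TANGO6, a neighbour of CDH1 at chr16:68843281-68843530 on the plus strand, which lay under peaks of full-length FOXA1, CTD-deleted FOXA2 and the fusion. The next is SPATA2, a neighbour of SNAI1 at chr20:49915530-49915779 on the minus strand, under peaks of both FOXA2 forms. The remaining 3 are members without a peak over the start: VIM at chr10:17227991-17228240 and the upstream-most ZEB1 start at chr10:31318167-31318416, both on the plus strand, and ZEB2 at chr2:144520120-144520369 on the minus strand. Each is printed 5′ to 3′ along the gene's strand, and capitals mark a match on either strand to TGTTTAC or TATTTAC (forkhead), CTTTGT (SOX) or CACCTG (the E-box of SNAI and ZEB factors).
TANGO6: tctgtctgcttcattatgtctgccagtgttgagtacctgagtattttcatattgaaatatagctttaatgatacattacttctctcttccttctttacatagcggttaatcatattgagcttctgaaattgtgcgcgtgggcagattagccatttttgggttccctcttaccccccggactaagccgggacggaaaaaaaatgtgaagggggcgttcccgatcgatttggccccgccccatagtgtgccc
SPATA2: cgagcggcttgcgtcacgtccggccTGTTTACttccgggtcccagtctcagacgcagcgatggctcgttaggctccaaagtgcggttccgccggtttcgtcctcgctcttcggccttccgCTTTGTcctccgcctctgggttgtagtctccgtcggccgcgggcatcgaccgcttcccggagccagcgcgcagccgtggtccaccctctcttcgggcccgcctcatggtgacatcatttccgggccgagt
VIM: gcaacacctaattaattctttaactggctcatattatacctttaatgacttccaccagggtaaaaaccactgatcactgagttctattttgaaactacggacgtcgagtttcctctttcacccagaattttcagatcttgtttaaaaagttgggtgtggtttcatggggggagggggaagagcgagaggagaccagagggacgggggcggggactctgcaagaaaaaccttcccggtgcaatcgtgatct
ZEB1: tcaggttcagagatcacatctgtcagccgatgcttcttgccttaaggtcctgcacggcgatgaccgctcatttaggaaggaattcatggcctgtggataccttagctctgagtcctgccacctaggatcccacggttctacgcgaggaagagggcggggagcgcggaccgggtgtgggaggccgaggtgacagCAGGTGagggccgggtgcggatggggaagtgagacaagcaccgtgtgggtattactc
ZEB2: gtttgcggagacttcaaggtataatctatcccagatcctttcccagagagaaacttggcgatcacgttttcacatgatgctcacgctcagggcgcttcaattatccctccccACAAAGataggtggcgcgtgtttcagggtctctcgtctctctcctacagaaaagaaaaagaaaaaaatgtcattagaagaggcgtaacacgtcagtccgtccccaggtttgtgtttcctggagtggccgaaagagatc
SPATA2 held the forkhead letters TGTTTAC, which 2.98% of 35116 promoters of this length hold, and the SOX letters CTTTGT, which 13.7% hold. ZEB2 held CTTTGT as its reverse complement ACAAAG, and ZEB1 held the E-box as its reverse complement CAGGTG, letters found in 17.5% of promoters. The TANGO6 and VIM stretches matched none of the 4 motifs. A match is a description of the letters, not of a bound site.

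All 10 loci had at least 1 peak of both FOXA2 forms, and fewer loci had peaks of FOXA3, SOX2 and the fusion. The number of loci with a peak was 8 for full-length FOXA1, where 83.4% of all protein-coding genes had one by the same rule, and 9 for CTD-deleted FOXA1 (82.3%). It was 10 for full-length FOXA2 (85.0%) and 10 for CTD-deleted FOXA2 (86.4%). Both FOXA3 forms reached 5 loci, beside 34.7% of coding genes for full length and 38.9% for the CTD-deleted form. SOX2 reached 1 locus (1.46%) and the fusion 4 (35.5%). For FOXA1, FOXA2 and the fusion these shares lie near those of coding genes in general. For both FOXA3 forms and SOX2 they were higher, for SOX2 through 1 locus alone, which was not tested. The shares are not matched for window length, and with 1 list per genotype no test between replicates was possible.

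**Figure D1:**
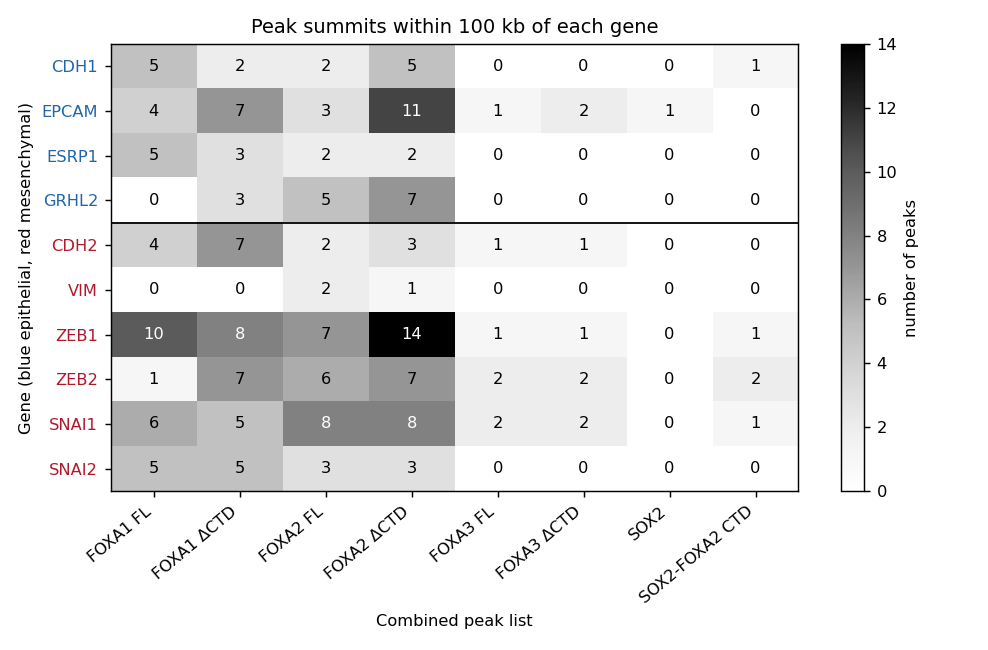
Number of peak summits inside each gene or within 100 kb of it (rows, epithelial genes in blue and mesenchymal genes in red) in each of the 8 combined lists (columns; FL, full length; ΔCTD, CTD-deleted). Counts ran from 0 to 14, with the highest at ZEB1 for CTD-deleted FOXA2, and the FOXA3, SOX2 and fusion columns held at most 2 peaks per gene.

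CDH1 encodes E-cadherin, the main adhesion protein of epithelial junctions. Its locus had 5 peaks of full-length FOXA1, 2 of CTD-deleted FOXA1, 2 of full-length FOXA2, 5 of CTD-deleted FOXA2 and 1 of the fusion, with 0 for both FOXA3 forms and SOX2. Of these 15 peaks, 3 had summits inside CDH1 and 10 inside another coding gene, TANGO6, which begins just beyond the end of CDH1. The summits within CDH1 were at 7.66 kb from the gene start for full-length FOXA1 and at 55.8 and 69.9 kb for CTD-deleted FOXA2. The site chr16:68842884-68844174, over the TANGO6 start printed above, was in 3 lists, as was chr16:68914666-68915206. No site of the locus was in more, and the first is described here for its higher strength. Its −log10 p was 5.30 and 8.37 in the 2 replicates of full-length FOXA1, 4.39 and 3.13 in those of CTD-deleted FOXA2, and 2.41 and 3.29 in those of the fusion.

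EPCAM encodes an epithelial surface adhesion protein. It had 4 peaks of full-length FOXA1, 7 of CTD-deleted FOXA1, 3 of full-length FOXA2, 11 of CTD-deleted FOXA2, 1 and 2 of the FOXA3 forms, 1 of SOX2 and 0 of the fusion. Because windows differ in length, peak density is the fairer measure between genes, and the 11 peaks amounted to 50.5 per Mb of window, a density above that of 96.6% of coding genes in the same list. Only 1 of the 29 peaks at this locus, from CTD-deleted FOXA2, had its summit inside EPCAM, while 12 were inside other coding genes and 16 lay between coding genes.

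ESRP1, a splicing regulator of epithelial transcripts, had 5 and 3 peaks of full-length and CTD-deleted FOXA1 and 2 of each FOXA2 form, and none in the other lists. Full-length FOXA1 had 2 of its peaks inside ESRP1, and CTD-deleted FOXA1 and both FOXA2 forms had none there. GRHL2, a grainyhead factor that activates CDH1 and other junction genes, had 0 peaks of full-length FOXA1, 3 of CTD-deleted FOXA1, 5 of full-length FOXA2 and 7 of CTD-deleted FOXA2. Of its 15 peaks, 7 were inside GRHL2, and the most recurrent site, chr8:101607703-101608664 within the gene, was shared by the last 3 of these lists. Its −log10 p was 5.13 and 4.59 with full-length FOXA2 and 5.64 and 14.8 with CTD-deleted FOXA2.

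CDH2 encodes N-cadherin, which replaces E-cadherin in mesenchymal cells. The counts were 4 and 7 for full-length and CTD-deleted FOXA1, 2 and 3 for FOXA2, 1 and 1 for FOXA3, and 0 for SOX2 and the fusion. Of the 18 peaks 11 were inside the gene. VIM, which encodes the intermediate filament vimentin, was the sparsest locus, with 2 peaks of full-length FOXA2, 1 of CTD-deleted FOXA2 and 0 in the other 6 lists. The full-length FOXA2 summits lay 50.5 and 19.1 kb before VIM, the first inside TRDMT1, and ranked 36161 and 44003 of 45076. The CTD-deleted FOXA2 summit lay 39.9 kb beyond the gene, and no VIM peak overlapped another.

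ZEB1 and ZEB2 encode E-box repressors of CDH1. ZEB1 had 10 and 8 peaks of full-length and CTD-deleted FOXA1, 7 and 14 of FOXA2, 1 and 1 of FOXA3, 0 of SOX2 and 1 of the fusion, and 25 of its 42 peaks were inside the gene. Its density with CTD-deleted FOXA2 was 34.0 per Mb, above 88.0% of coding genes, and with full-length FOXA2 17.0 per Mb, above 62.7%. ZEB2 had 1 peak of full-length FOXA1 against 7 of CTD-deleted FOXA1, then 6 and 7 for FOXA2, 2 and 2 for FOXA3, 0 for SOX2 and 2 for the fusion. The full-length FOXA1 density of 2.98 per Mb at ZEB2 exceeded that of 17.6% of coding genes, and the CTD-deleted density of 20.8 per Mb that of 76.6%.

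SNAI1, the repressor Snail, was dense in all 6 FOXA lists. It had 6 and 5 peaks of full-length and CTD-deleted FOXA1, 8 and 8 of FOXA2, 2 and 2 of FOXA3, 0 of SOX2 and 1 of the fusion, and its density was above that of 82.5% to 96.6% of coding genes in the FOXA lists. The windows around SNAI1 hold several other genes, and 13 of its 32 peaks were inside them, with 2 inside SNAI1 itself. SNAI2, the repressor Slug, had 5 and 5 peaks of the FOXA1 forms, 3 and 3 of the FOXA2 forms and 0 in the other lists, and all 16 lay between coding genes.

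**Figure D2:**
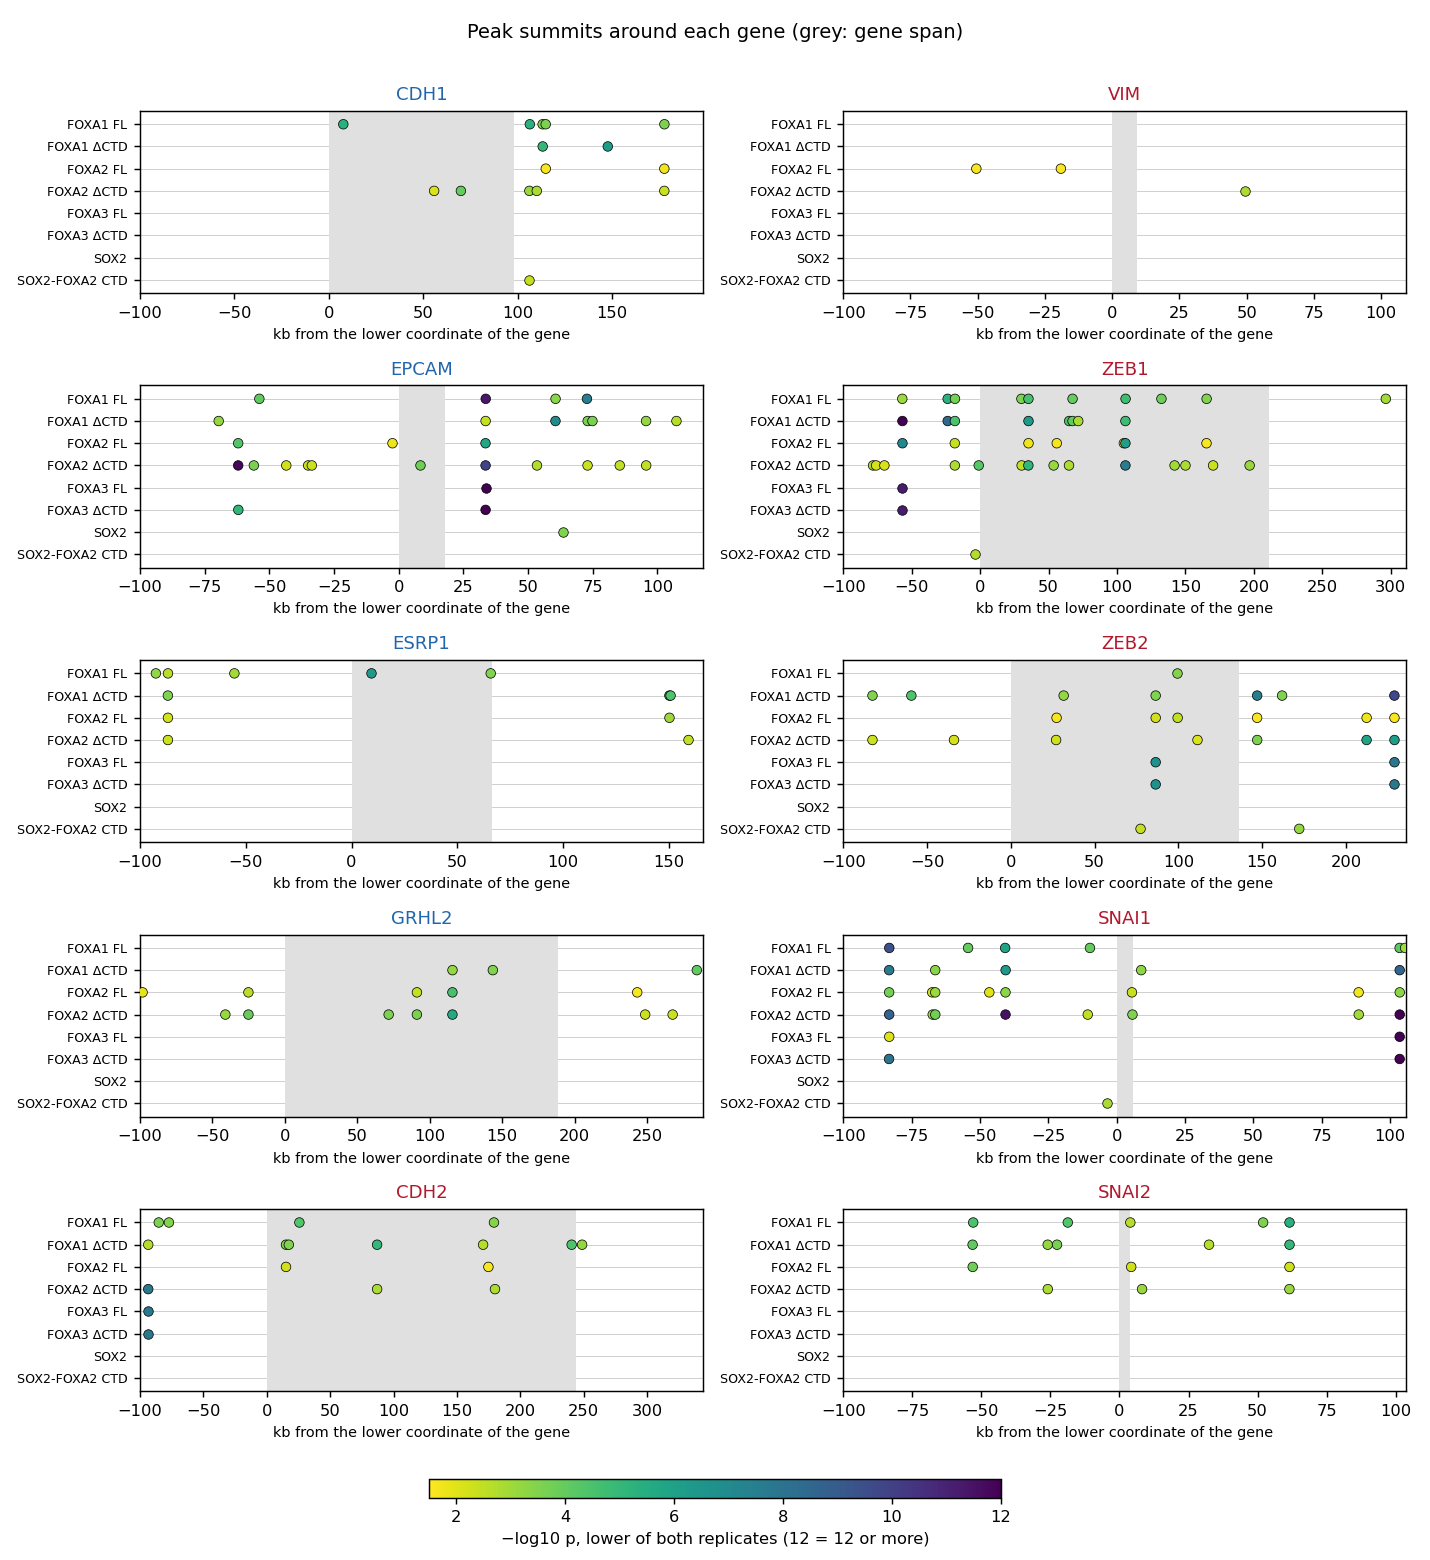
Position of every peak summit (points) along each gene and its 100 kb flanks, in kb from the lower genome coordinate of the gene, with 1 line per combined list and the gene span in grey. Colour gives −log10 p as the lower of both replicates, and most summits at SNAI1, SNAI2, EPCAM and VIM fall outside the gene spans.

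Summits close to a gene end were found at 0 to 2 of the 10 genes in each list, where an end is either limit of the gene span. Within 1 kb of either end, full-length FOXA1 had peaks at 2 genes (ESRP1 and SNAI2), beside 11.3% of coding genes, full-length FOXA2 at 2 (SNAI1 and SNAI2; 12.9%), and CTD-deleted FOXA2 at 2 (SNAI1 and ZEB1; 11.8%). CTD-deleted FOXA1 had 0, where 6.33% of coding genes had such a peak. Neither FOXA3 form had a peak there (1.94% of coding genes for full length and 2.24% for the CTD-deleted form), nor did SOX2 (0.160%) or the fusion (4.48%). The ESRP1 summit (456 bp) and the SNAI1 summits (323 bp for full-length and 131 bp for CTD-deleted FOXA2) lay inside the gene, below its upper coordinate. The SNAI2 summits lay 103 bp (full-length FOXA1) and 419 bp (full-length FOXA2) beyond the upper coordinate. The CTD-deleted FOXA2 summit nearest a ZEB1 start lay 997 bp before the gene, at chr10:31317212-31317699, with −log10 p of 5.34 and 4.27. Inside the gene spans, full-length FOXA1 had peaks in 5 of the 10 genes (32.8% of coding genes), CTD-deleted FOXA1 in 4 (34.1%), full-length FOXA2 in 5 (37.3%) and CTD-deleted FOXA2 in 7 (37.2%). Both FOXA3 forms and the fusion had a peak in 1 gene, ZEB2 (9.06%, 10.3% and 9.40% of coding genes), and SOX2 in 0 (0.270%). The coding-gene shares are not matched for gene length, and a longer span has more room for a peak. With both 100 kb flanks, the member windows ran from 204 kb (SNAI2) to 444 kb (CDH2), beside a median of 224 kb for coding genes. These counts therefore do not show enrichment inside the member genes.

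The epithelial loci held about the share of peaks that their length would give. They make up 39.3% of the summed window length. Their share of peaks was 35.0% for full-length FOXA1 (14 of 40; Wilson 95% interval 22.1% to 50.5%) and 31.9% for CTD-deleted FOXA1 (15 of 47; 20.4% to 46.2%). It was 30.0% for full-length FOXA2 (12 of 40; 18.1% to 45.4%) and 41.0% for CTD-deleted FOXA2 (25 of 61; 29.5% to 53.5%). The remaining lists held 1 of 7 peaks (full-length FOXA3), 2 of 8 (CTD-deleted FOXA3), 1 of 1 (SOX2) and 1 of 5 (fusion) at epithelial loci. All 8 intervals include the share of length, and they cover counting error over peaks only, since neighbouring peaks are not independent and the spread between replicates is not in them.

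Densities of the single genes were spread widely within each class. For full-length FOXA1 the median density was 17.6 per Mb over the 4 epithelial and 16.7 over the 6 mesenchymal loci, beside 9.85 over all coding genes. After CTD deletion of FOXA1 these were 9.50 and 20.1, beside 9.93. For full-length FOXA2 they were 10.2 and 15.9, beside 12.6, and for CTD-deleted FOXA2 17.4 and 17.8, beside 14.0. Epithelial and mesenchymal values overlapped in each of these 4 lists.

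**Figure D3:**
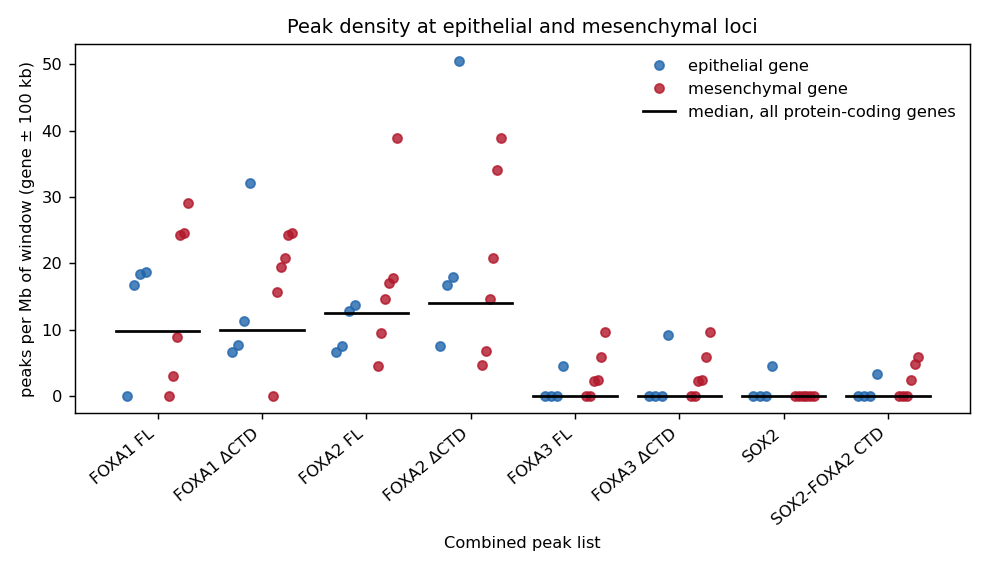
Peaks per Mb of window (gene span with 100 kb on each side) for each of the 4 epithelial genes (blue) and 6 mesenchymal genes (red) in the 8 combined lists. Horizontal lines are the median over 19974 protein-coding genes, and both classes scatter on either side of it in the FOXA1 and FOXA2 lists.

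Summed over the 8 lists, the classes differed in where their peaks lay, a difference that was not tested. Of the 71 peaks at epithelial loci, 13 (18.3%) were inside the member gene, 30 (42.3%) inside another coding gene and 28 (39.4%) between coding genes. Of the 138 at mesenchymal loci, 49 (35.5%) were inside the member gene, 17 (12.3%) inside another coding gene and 72 (52.2%) between genes. A site found in several lists counts once for each, so these peaks are not independent. Single genes also weigh heavily. ZEB1 gave 25 of the 49 mesenchymal peaks inside members, while VIM and SNAI2 gave 0, and GRHL2 gave 7 of the 13 epithelial ones. The difference therefore describes these genes and not the classes in general. The neighbours of a gene set how much of its window can fall in another gene, and this was not tested. With summits in other genes left out, an alternative added after the values were seen, the epithelial share was 23.3% for full-length FOXA1 (7 of 30), 15.2% for CTD-deleted FOXA1 (5 of 33), 25.8% for full-length FOXA2 (8 of 31) and 34.0% for CTD-deleted FOXA2 (17 of 50).

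Deletion of the CTD went with more FOXA2 peaks at these loci, most of all at EPCAM and ZEB1. FOXA2 peaks numbered 40 with the full-length protein and 61 with the CTD-deleted one, a ratio of 1.52 (interval 1.03 to 2.27 from the Wilson interval of the share), beside 1.18 over chromosomes 1 to 22 and X. The interval includes 1.18. As for the shares, intervals of ratios cover counting error over peaks only and not the spread between replicates. Peaks were more numerous after deletion at 6 loci (44.4% of coding genes), fewer at 1, VIM (30.4%), and equal at 3, ESRP1, SNAI1 and SNAI2 (25.2%). At the 4 epithelial loci the count was 12 before and 25 after, a ratio of 2.08 (1.06 to 4.09), and at the 6 mesenchymal loci 28 and 36, a ratio of 1.29 (0.788 to 2.10). The difference between the classes was not tested and the intervals overlap. Without EPCAM the epithelial ratio was 1.56 (0.689 to 3.51), and without ZEB1 the mesenchymal ratio was 1.05 (0.581 to 1.89). With equal numbers of the strongest peaks taken from both lists the FOXA2 ratio over all loci was 1.23, and with the stricter IDR limit of the pair applied to both lists it was 2.35.

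For FOXA1 the loci moved in both directions. There were 40 peaks with the full-length protein and 47 with the CTD-deleted one, a ratio of 1.18 (0.773 to 1.79) beside 1.35 over chromosomes 1 to 22 and X. Peaks were more numerous after deletion at 4 loci, EPCAM, GRHL2, CDH2 and ZEB2 (40.5% of coding genes), fewer at 4, CDH1, ESRP1, ZEB1 and SNAI1 (33.3%), and equal at 2, VIM and SNAI2 (26.1%). The ratio was 1.07 (0.525 to 2.19) at epithelial and 1.23 (0.738 to 2.05) at mesenchymal loci. It fell below 1, to 0.825 over all loci, with equal numbers of the strongest peaks, and was 4.70 with the stricter IDR limit of the pair, so its size and direction rest on how the lists were limited. At CDH1 and ZEB1 the net counts went opposite ways in the 2 factors, which was not tested. How many coding genes do so was not counted. With FOXA1, CDH1 had 4 full-length peaks without a CTD-deleted partner and 1 CTD-deleted peak without a full-length partner, and with FOXA2 these were 1 and 4. At ZEB1 they were 4 and 2 with FOXA1, and 4 and 11 with FOXA2.

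FOXA3 gave 7 peaks with the full-length and 8 with the CTD-deleted protein, a ratio of 1.14 (0.431 to 3.03) beside 1.11 genome-wide. However, 6 of the 7 full-length peaks were entries identical to those of the CTD-deleted list in coordinates and in all values, as were 5012 of the 6130 full-length peaks in all, so these lists are not independent measurements of 2 genotypes. The exception was at SNAI1, chr20:49899469-49899983, with −log10 p of 2.04 and 21.3. CTD-deleted FOXA3 had more peaks at 1 locus, EPCAM (8.87% of coding genes), fewer at 0 (0.516%) and as many at 9 (90.6%). SOX2 had 1 peak and the fusion 5, a ratio of 5 (0.775 to 32.3) beside 5.75 genome-wide. The fusion had more peaks than SOX2 at 4 loci, CDH1, ZEB1, ZEB2 and SNAI1 (35.1% of coding genes), fewer at 1, EPCAM (0.165%), and as many at 5 (64.7%). In the first-replicate lists, which hold 13977 and 42705 peaks, SOX2 had 15 peaks at these loci and the fusion 40, a ratio of 2.67, and EPCAM had 1 and 5, so the direction at EPCAM turned.

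Overlap between the forms of a factor was incomplete. Of the full-length FOXA1 peaks at the 10 loci, 16 of 40 (40.0%, Wilson 95% interval 26.3% to 55.4%) overlapped a CTD-deleted FOXA1 peak by at least 1 bp, beside 56.0% genome-wide, and these were 34.0% of the 47 CTD-deleted peaks, beside 41.7%. Of the full-length FOXA2 peaks, 22 of 40 (55.0%, 39.8% to 69.3%) overlapped a CTD-deleted peak, beside 51.3%, and they were 36.1% of the 61 CTD-deleted peaks, beside 43.2%. The SOX2 peak and the 5 fusion peaks did not overlap, where 76.7% of SOX2 and 13.6% of fusion peaks did so genome-wide.

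At the shared FOXA2 sites −log10 p was higher without the CTD. All 22 shared peaks had a higher value after deletion by the lower of both replicates, beside 81.8% of shared peaks genome-wide, with a median difference of 1.31 beside 1.18. The lists stop at different values, however, the lowest being 1.52 for full-length and 2.09 for CTD-deleted FOXA2, and 7 of the 22 full-length values lay below the latter, so they could only be matched by a higher one. Of the 15 at or above it, 15 were higher after deletion, beside 74.0% genome-wide. Over all shared peaks, both CTD-deleted replicate values exceeded both full-length values at 16 of the 22, or 72.7%, where 51.6% of shared peaks genome-wide did so, and the reverse held at 0 (3.11%). Among the 15 peaks above the limit it was 11, or 73.3%, beside 43.3%. At the SNAI1 site in UBE2V1 the values were 7.44 and 3.34 with full-length FOXA2 and 13.0 and 17.2 without the CTD. A SNAI1 site at chr20:49942000-49942786 had 11.2 and 3.34 against 13.7 and 11.5, and the EPCAM site at chr2:47307042-47307569 had 6.91 and 4.33 against 17.4 and 11.8. For FOXA1, 11 of 16 shared peaks were higher after deletion (56.1% genome-wide), both replicate values were higher at 1 (17.8%), ZEB1, and both lower at 1 (5.18%), EPCAM. A −log10 p grows with read depth, which is not known for these libraries, so the values compare lists and not amounts of bound protein.

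**Figure D4:**
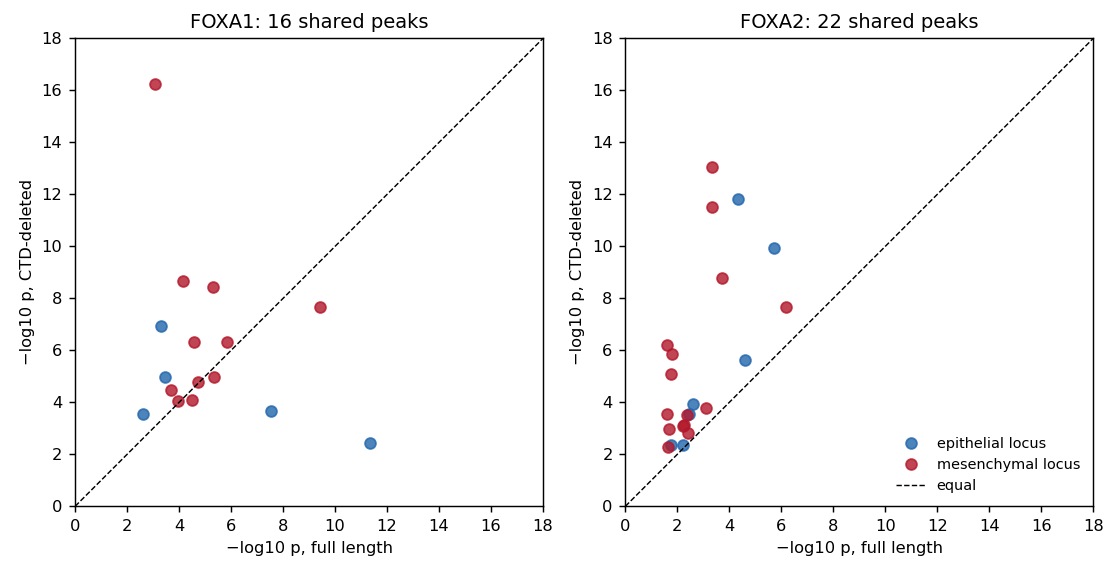
−log10 p (lower of both replicates) of each peak shared by the full-length form (horizontal axis) and the CTD-deleted form (vertical axis) of FOXA1 (16 peaks) and FOXA2 (22 peaks), at epithelial (blue) and mesenchymal (red) loci. The dashed line marks equality, and all 22 FOXA2 points lie above it, beside 11 of 16 for FOXA1.

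A small set of sites recurred across factors. Overlapping peaks of the 8 lists merged into 122 sites, 45 at epithelial and 77 at mesenchymal loci, and 78 of them occurred in 1 list. Sites in at least 2 lists made up 36.1%, beside 45.6% of sites genome-wide, those in at least 5 lists 4.10% (5 sites) beside 4.01%, and those in all 4 FOXA1 and FOXA2 lists 7.38% (9 sites) beside 8.71%. The 5 most recurrent sites were 1 at EPCAM, 2 at SNAI1, 1 at ZEB1 and 1 at ZEB2, and none was found with SOX2 or the fusion. A site in 5 lists without these must include FOXA3, and the FOXA3 lists share most entries, so their presence in both FOXA3 forms follows from the choice of sites.

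The EPCAM site was in all 6 FOXA lists, with its summit outside the gene. Its replicate −log10 p values were 11.3 and 16.3 with full-length FOXA1, 2.44 and 6.06 with CTD-deleted FOXA1, 9.42 and 5.73 with full-length FOXA2, 9.93 and 15.5 with CTD-deleted FOXA2, and 12.2 and 24.8 in both FOXA3 lists. By the lower replicate it was lowest in CTD-deleted FOXA1, whose replicate values did not overlap those of full-length FOXA1. The SNAI1 sites in all 6 FOXA lists were chr20:49899109-49900107, between coding genes, and chr20:50086067-50086785, inside UBE2V1, which encodes a ubiquitin-conjugating enzyme variant. At the latter the values were 9.40 and 4.14 with full-length FOXA1, 8.67 and 24.2 with CTD-deleted FOXA1, and 13.4 and 18.7 in both FOXA3 lists.

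The ZEB1 site chr10:31260967-31262085, 56731 bp before the gene, was in 5 lists and missing from CTD-deleted FOXA2. Its values were 16.0 and 3.06 with full-length FOXA1, 16.2 and 19.1 with CTD-deleted FOXA1, 8.56 and 7.08 with full-length FOXA2, and 11.9 and 11.1 in both FOXA3 lists. In the full-length FOXA2 list it ranked 1079 of 45076, and it was the strongest peak at a mesenchymal locus that the CTD-deleted list lacked. The ZEB2 site chr2:144612533-144613275, 92881 bp from the gene, was missing from full-length FOXA1, with values of 9.74 and 13.2 in CTD-deleted FOXA1, 1.59 and 1.72 in full-length FOXA2, 6.19 and 9.97 in CTD-deleted FOXA2, and 7.75 and 9.16 in both FOXA3 lists. The absence of a peak from a combined list says that it did not pass the list's limit in both replicates, not that the site was unbound.

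**Figure D5:**
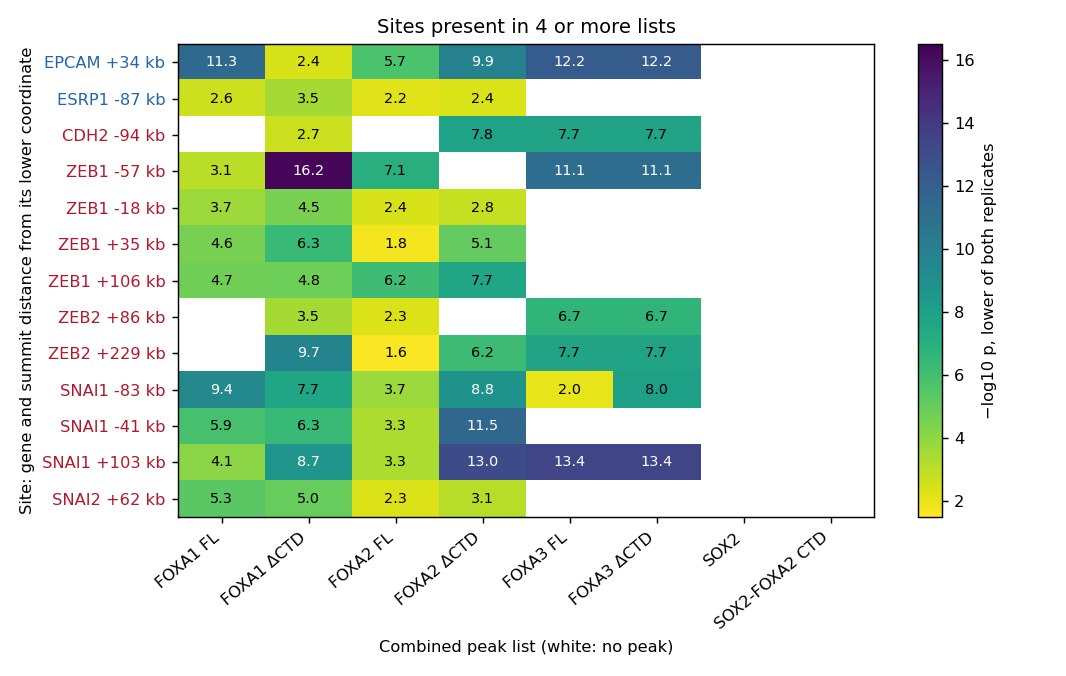
−log10 p (lower of both replicates) of the 13 sites present in at least 4 of the 8 combined lists, named by gene and by the distance of the summit from the lower coordinate of the gene. White marks a list without a peak, and no site of this set had a peak of SOX2 or of the fusion.

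Peaks particular to 1 form of a factor included some inside the genes. The strongest full-length FOXA1 peak at an epithelial locus that CTD-deleted FOXA1 lacked was in ESRP1 at chr8:94650385-94651046 (−log10 p of 6.95 and 6.34, rank 6167 of 37532), and at mesenchymal loci 2 peaks tied by their lower value, 1 in CDH2 at chr18:27958381-27958812 (4.35 and 8.66) and 1 near SNAI2 at chr8:48898444-48899156 (4.35 and 5.33). CTD-deleted FOXA1 peaks that the full-length list lacked were led by 1 in TANGO6 near CDH1, chr16:68884785-68885294 (6.22 and 14.3), and by the ZEB2 site above. The strongest full-length FOXA2 peak at an epithelial locus absent after deletion was at ESRP1 inside DPY19L4, chr8:94791276-94792143 (3.02 and 6.95). CTD-deleted FOXA2 peaks absent from full length were led by 1 inside CDH1, chr16:68807105-68807419 (4.78 and 3.96), and 1 near CDH2, chr18:27838999-27839608 (8.15 and 7.81). The CDH2 peak overlapped peaks of CTD-deleted FOXA1 and of both FOXA3 lists. The strongest fusion peak was at ZEB2, chr2:144555956-144556463, with 3.20 and 3.29.

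The wider set of transition genes comprised 20 further epithelial genes, such as the repressors OVOL1 and OVOL2 and tight-junction claudins, and 20 further mesenchymal genes, such as TWIST1, FN1 and TGFB2, all of which matched the annotation. The window of CDH3 overlaps that of CDH1, so those genes share peaks. Each gene was counted on its own, so a peak inside overlapping windows of this set counts for each of them, and neighbouring genes are not independent. Full-length FOXA1 had a peak at 17 of the epithelial and 18 of the mesenchymal genes (85% and 90%, beside 83.4% of coding genes), and CTD-deleted FOXA1 at 15 and 16 (75% and 80%, beside 82.3%). Each FOXA2 form had a peak at 17 and 18 (85% and 90%, beside 85.0% for full length and 86.4% for CTD-deleted). Full-length FOXA3 had peaks at 8 and 7 (40% and 35%, beside 34.7%), and CTD-deleted FOXA3 at 10 and 7 (50% and 35%, beside 38.9%). SOX2 had none in either list (1.46% of coding genes), and the fusion had peaks at 7 and 3 (35% and 15%, beside 35.5%). The mesenchymal count for the fusion was thus below the coding-gene share, a difference that was not tested. After CTD deletion of FOXA2 peaks were more numerous at 11 and fewer at 7 of the epithelial genes, and more numerous at 9 and fewer at 6 of the mesenchymal genes, beside 44.4% and 30.4% of coding genes. For FOXA1 these numbers were 6 and 6 for the epithelial and 10 and 7 for the mesenchymal genes, beside 40.5% and 33.3%.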

How the data were processed

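Per the submitters' processing notes, the build was hg38 and the tools included FastQC 0.10.1, Trim Galore, Bowtie2 2.4.4, SAMtools 0.1.18, MACS2 and deepTools 2.4.1, with no roles stated, and the control and peak-calling settings are not given in the sources used here. The authors deposited 14 peak lists, of which 4 were exact copies: 8 combined lists and 2 lists of a first replicate (SOX2 and fusion) were used. The score deposited by the authors is a log transform of the IDR, and their −log10 p values are 1 per replicate, of which the lower was taken as the strength of a peak. The 2 replicate columns carry no sample number. The ratio (fold enrichment) deposited by the authors in the first-replicate lists was not used. Summit offsets (unit other) were read from the deposited lists. Library depth is unknown. The weakest IDR kept by the authors was 0.200 and 0.0501 for full-length and CTD-deleted FOXA1, 0.351 and 0.250 for FOXA2, 0.100 and 0.0100 for FOXA3, 0.100 for SOX2 and 0.920 for the fusion, so the lists differ in stringency.

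Peaks were assigned with Python 3.11.15, pandas 2.3.3 and NumPy 2.4.6 to RefSeq GRCh38 gene spans with 100 kb flanks. Shares have Wilson 95% intervals (SciPy 1.17.1) and background is the same count over 19974 protein-coding genes. Code was tested on simulated data. All 10 genes were named in every list, with the strongest peak per pair and class that the partner lacked (ties are both given). The site in most lists (ties by strength) is described for CDH1, EPCAM, GRHL2, ZEB1, ZEB2 and SNAI1. The genes and gene lists were chosen with earlier results of these data known. Alternatives were 50 and 250 kb windows, gene spans only, IDR limits, equal peak numbers, merged peaks, other overlap rules, FOXA3 entries left out, single loci left out and first-replicate lists. No sequence was read under the peaks, and the input sample was not used here. A neighbouring gene of 1 locus is not reported here.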

Additional observations from a re-analysis of the deposited data

Results flagged for a closer look

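Lists of the first replicate alone held signal at loci where the combined list had 0 peaks. With SOX2, ZEB2 had 7 peaks in the first replicate, a density above that of 98.1% of coding genes in that list. With the fusion, EPCAM had 5 peaks in the first replicate, a density above that of 84.8% of coding genes, GRHL2 had 4 (56.2%) and CDH2 had 5 (57.5%), the last 2 close to the middle of coding genes. These lists hold 13977 and 42705 peaks and are less strict than the combined lists. No matching list of the second replicate was used here.

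The change in peak number after CTD deletion had opposite signs for FOXA1 and FOXA2 at 2 genes, in 1 list per genotype. At CDH1 it was −3 for FOXA1 and 3 for FOXA2, a difference of 6 peaks, and at ZEB1 it was −2 and 7, a difference of 9 peaks. Neither difference was tested. For FOXA1, 40.5% of coding genes had more peaks after deletion and 33.3% fewer. For FOXA2 these shares were 44.4% and 30.4%. The share of coding genes with opposite signs was not counted, so whether 2 of 10 is unusual cannot be told.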

How the results depend on the processing

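Of 163 alternative values of the 32 results that answer a comparison, 137 moved by less than the counting interval or factor allowed. The other 26 moved more. Intervals from few peaks are wide: the SOX2 epithelial share went from 100% (1 of 1) to 26.7% without leaving its interval. Among all 323 values 0 turned the direction of a ratio whose interval excluded 1. Only the FOXA2 ratios over all loci and at epithelial loci had such an interval, so other values could not count as turned. At an IDR of at most 0.01 the peak ratio for FOXA1 was 10 over all loci, 5 at epithelial and 15 at mesenchymal loci. The whole lists then held 3438 peaks of full-length and 26826 of CTD-deleted FOXA1. The loci with a peak then numbered 2 for full-length FOXA1, 0 for full-length FOXA2, 6 for CTD-deleted FOXA2, 0 for SOX2 and 0 for the fusion. In the last 4 of these the whole lists held 0, 6523, 634 and 384 peaks. The share of coding genes with a peak at this limit was not counted. Overlapped shares there were 5.00% for CTD-deleted FOXA1, set against the shortened full-length list, and 0% for CTD-deleted FOXA2. The latter could take no other value, since no full-length FOXA2 peak was left to overlap. When the stricter limit of each pair was applied, the FOXA1 ratio was 4.70 (3.75 epithelial, 5.33 mesenchymal) and the FOXA2 ratio 2.35 (2.12 mesenchymal). With summits inside gene spans only, the epithelial share was 14.3% for CTD-deleted FOXA1, 15.4% for full-length FOXA2, and 0% for full-length FOXA3, CTD-deleted FOXA3 and the fusion; with summits in other genes left out it was 15.2% for CTD-deleted FOXA1. With the shared FOXA3 entries left out of the full-length list, its epithelial share was 0%, the FOXA3 ratio 8 (2, from 1 and 2 peaks, with them left out of both lists) and the overlapped share of the CTD-deleted list 12.5%. In 50 kb windows both FOXA3 forms reached 2 loci. The FOXA1 ratio fell below 1 at epithelial loci in 50 kb windows (0.75), in gene spans (0.667) and without EPCAM (0.80). With equal numbers of the strongest peaks it was below 1 in both classes, 0.714 at epithelial and 0.885 at mesenchymal loci. The causes were not tested. No value existed where a limit left 0 peaks: no full-length FOXA2 peak has an IDR of at most 0.01. No paired analysis was possible because each genotype has 1 combined list whose replicate columns carry no number, and leaving out a replicate was possible only for SOX2 and the fusion, whose first-replicate lists gave a ratio of 2.67 (15 and 40 peaks) and epithelial shares of 26.7% and 32.5%. Library depth is unknown, so weak sites missing from a list cannot be told from sites that were sequenced too little.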

Other observations

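In the lists of the first replicate, ZEB2 stood highest of the 10 genes for both SOX2 and the fusion. The SOX2 list had 7 peaks at ZEB2, 3 at ZEB1, 2 at GRHL2, 1 each at CDH1, EPCAM and SNAI1, and 0 at ESRP1, CDH2, VIM and SNAI2. The fusion list had 13 at ZEB2, a density above that of 97.1% of coding genes in that list, 6 at ZEB1, 5 each at EPCAM and CDH2, 4 at GRHL2, 2 each at CDH1, ESRP1 and VIM, 1 at SNAI1 and 0 at SNAI2. These are single libraries with no replicate check.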
